A study of Mus musculus with 4 samples.

Results

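The genes described here are 40 genes of the endoplasmic reticulum (ER) that sense, fold, move or destroy secretory proteins, taken by symbol from tables of 23238 distinct gene symbols. They fall into 5 roles: 3 sensors of the unfolded protein response (UPR), 12 chaperones and cochaperones, 7 enzymes of disulfide bond formation, 8 genes of ER-associated degradation and 10 genes of protein translocation and signal peptide removal. All 40 stood on a single row each and all 40 passed the filter on low counts.

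The cells were primary acinar cells from the pancreas of C57BL/6J mice, grown in a serum-poor medium with trypsin inhibitor and 25 ng/ml epidermal growth factor. In the treated group they received an adenovirus that carries estrogen-related receptor γ (ERRγ, gene Esrrg), an orphan nuclear receptor, and in the control group an adenovirus that carries green fluorescent protein (GFP). Both viruses were given at a multiplicity of infection of 100 and the cells were harvested 36 h later, so both groups share the vector and the growth factor. Each group has 2 libraries of transcript-end reads, and whether they stem from different mice or cultures is not in the labels. The p-values therefore measure only the spread between these libraries, which may be technical.

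In an unstressed cell the chaperone BiP holds the 3 sensors IRE1α, PERK and ATF6 inactive. When unfolded proteins draw BiP away, IRE1α splices the Xbp1 transcript, PERK phosphorylates the initiation factor eIF2α and favours translation of ATF4, and ATF6 is cleaved to a transcription factor. XBP1 and ATF6 then raise chaperones, oxidoreductases and degradation genes through ER stress elements in their promoters. Acinar cells are known for an extensive rough ER and a high basal load on this system, because they export digestive enzymes in bulk.

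The libraries held 10105604 to 11012351 counts. Values are CPM, the share of a library's counts on a fixed common scale after TMM normalization, and folds (log2 ratios of ERRγ to GFP) come from edgeR's quasi-likelihood test with p-values adjusted over all 13070 genes tested. Esrrg had 1453 and 12994 counts in ERRγ libraries 1 and 2 against 86 and 107 in the GFP libraries. In CPM it stood at 129 and 1282 in ERRγ libraries 1 and 2, which thus differed 9.90-fold in the gene the virus carried. Markers of acinar cells were low apart from the chymotrypsinogen gene Ctrb1, which had 45.6 and 54.0 CPM with ERRγ and 47.0 and 31.7 CPM with GFP. All 10 together summed to 70.4 and 64.7 CPM with ERRγ against 83.2 and 43.4 CPM with GFP. Without Ctrb1 the other 9 summed to 24.8 and 10.8 CPM with ERRγ and 36.2 and 11.7 CPM with GFP, higher in library 1 of each group. The acinar master regulator Ptf1a was at 0 counts throughout, where 3 counts would be 0.267 to 0.307 CPM. The 5 ductal markers summed to 2256 and 2758 CPM with ERRγ and 3046 and 2933 CPM with GFP, lower in both ERRγ libraries, and the part of this in the values below was not tested. The 6 stellate or fibroblast markers summed to 501 to 737 CPM, 5 macrophage markers to 6.68 to 13.7 CPM and 4 endothelial markers to 2.96 to 9.81 CPM. Of the macrophage markers Adgre1 had 0 counts in both ERRγ libraries and 8 and 20 with GFP, Csf1r was higher in both ERRγ libraries, Cd68 and Lyz2 overlapped, and Ptprc had 1 count in all. The 5 islet markers summed to 29.9 and 7.89 CPM with ERRγ against 133.6 and 18.8 CPM with GFP. In every library the ductal markers thus stood far above the acinar markers of the labelled cell type.

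ER stress elements are shown first because they are the feature by which XBP1 and ATF6 recognise genes of this kind. RefSeq windows (GRCm38.p6) from 250 bases before to 50 bases after the transcription start were at hand for 32 of the 40 genes, with Ero1l and Ero1lb matched through their newer symbols. The ER stress element (ERSE), searched as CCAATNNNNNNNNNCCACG on both strands, was present in 10 of these 32 genes, or 31.2%, and in 37 of the 27025 genes with a window, or 0.137%. The 11 matches are printed on the strand that reads CCAAT first, each with 10 flanking bases on either side and with the fixed bases in capitals. In Calr, Creld2, Ero1lb, Derl3 and the second match of Hsp90b1, this strand is opposite to that of the gene. Gene spans given below are from GENCODE, whose starts can differ from RefSeq, and the Hspa5 match lies inside its GENCODE span.
Hspa5 (chr2:34772015-34772053, plus strand): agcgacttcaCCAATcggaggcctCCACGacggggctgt
Hsp90b1 (chr10:86705628-86705666, minus strand): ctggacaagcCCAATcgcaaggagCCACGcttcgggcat
Hsp90b1 (chr10:86705523-86705561, plus strand): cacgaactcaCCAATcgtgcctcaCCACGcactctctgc
Calr (chr8:84847065-84847103, plus strand): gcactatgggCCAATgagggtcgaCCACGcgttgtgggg
Canx (chr11:50325790-50325828, minus strand): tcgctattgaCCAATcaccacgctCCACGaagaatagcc
Dnajc3 (chr14:118937817-118937855, plus strand): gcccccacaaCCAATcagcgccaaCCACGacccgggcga
Creld2 (chr15:88819510-88819548, minus strand): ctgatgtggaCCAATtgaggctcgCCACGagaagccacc
Pdia6 (chr12:17266481-17266519, plus strand): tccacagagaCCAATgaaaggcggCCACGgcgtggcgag
Ero1lb (chr13:12565672-12565710, minus strand): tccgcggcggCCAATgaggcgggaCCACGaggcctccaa
Syvn1 (chr19:6046522-6046560, plus strand): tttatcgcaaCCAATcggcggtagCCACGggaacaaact
Derl3 (chr10:75893232-75893270, minus strand): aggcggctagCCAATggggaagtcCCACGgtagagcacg

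The related element ERSE-II, searched as ATTGGNCCACG, was present in 2 of the 32 genes, Herpud1 and Dnajb11, and in 0.0444% of all genes with a window. In Herpud1 the match began 52 bases before the start; that in Dnajb11 lay after the start.
Herpud1 (chr8:94386367-94386397, plus strand): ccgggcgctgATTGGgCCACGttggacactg

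The UPR element TGACGTGG and the estrogen-related receptor element TCAAGGTCA matched in 0 of the 32 windows, against 0.714% and 0.466% of all genes. An absent match says only that these letters are not in this window.

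With ERRγ, 1 of the 40 UPR and ER folding genes rose, 3 fell and 36 did not pass the test. The gene that rose was Eif2ak3, which encodes the sensor kinase PERK (1.59-fold). The genes that fell were Manf, a secreted and ER-resident neurotrophic factor that binds BiP (1.63-fold lower), Pdia4, a protein disulfide isomerase (1.59-fold lower), and Spcs3, a subunit of the signal peptidase complex (1.53-fold lower). Hspa5, which encodes BiP itself and is the most used marker of ER stress, stood at 905 ± 94.3 CPM with ERRγ against 901 ± 38.1 CPM with GFP (mean ± SD, n = 2 in each group). The plot of fold changes by role shows these values for every gene.

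Across all genes tested 5.06% rose and 1.78% fell, against 2.5% and 7.5% of these 40. At an unadjusted edgeR p under 0.05, 13 of the 40 were lower (32.5%, against 9.53% of all genes tested) and 4 higher (10%, against 13.6%). The lower ones were 5 of 12 chaperones, 4 of 7 disulfide enzymes, 3 of 10 translocation genes and 1 of 8 degradation genes. Of the higher ones, 2 were disulfide enzymes, 1 a chaperone and 1 a sensor. Both ERRγ libraries lay above both GFP libraries for 6 of the 40 genes (15%, against 27.4% of all genes tested) and below both for 17 (42.5%, against 26.6%). The median log2 fold change was −0.10 over the 40 genes and −0.01 over all genes tested. By role the medians were 0.17 for the sensors, −0.31 for the chaperones, −0.51 for the disulfide enzymes, −0.12 for the degradation genes and −0.04 for the translocation genes. These medians depended on single libraries. That of the sensors was −0.017 without ERRγ library 2 and 0.33 without ERRγ library 1, and that of the chaperones ran from −0.45 with GFP library 2 left out to −0.15 with GFP library 1 left out. The median of the degradation genes ran up to 0.0049, without GFP library 2, and that of the translocation genes 0.03 without ERRγ library 1 and −0.08 without ERRγ library 2. For the disulfide enzymes the median was −0.61 to −0.35 when a library was left out. A filter at a mean of 5 CPM left 37 of the 40 genes, without Ern1, Ero1lb and Derl3. The medians were then −0.25 for the disulfide enzymes, 0.42 for the sensors (Eif2ak3 and Atf6 only) and −0.07 for the degradation genes. The median over the 40 genes was −0.15 without ERRγ library 2 and −0.06 without GFP library 2. For 27 of the 40 genes the log2 fold change was below 0.5 in size. Summed over the 40 genes, the level was 5550 and 6630 CPM in ERRγ libraries 1 and 2 and 6551 and 6138 CPM in the GFP libraries, so the groups overlapped. In RNA from whole cultures, fewer cells that express a gene and less RNA of it per cell cannot be told apart.

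**Figure D1:**
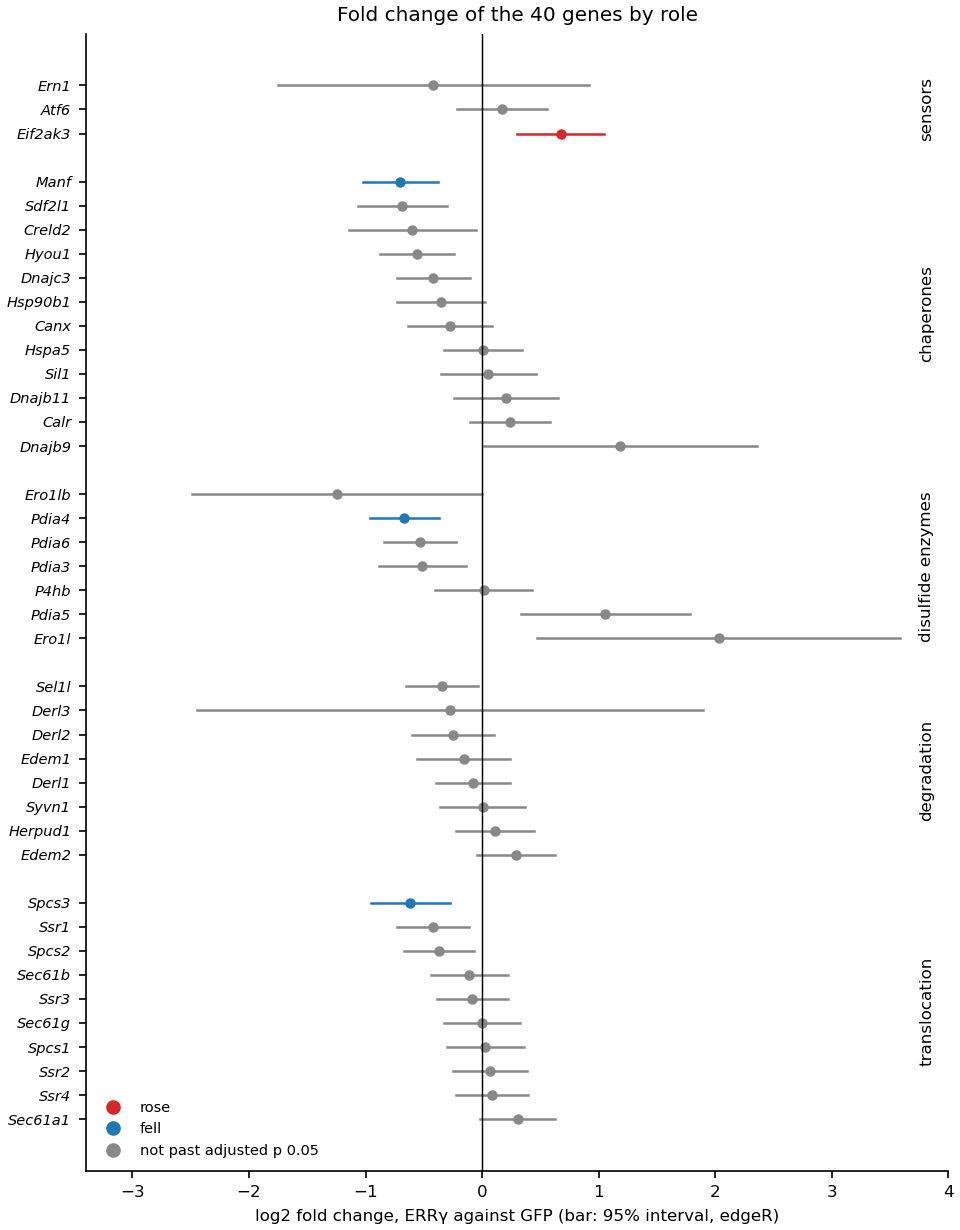
Log2 fold change of each of the 40 genes with ERRγ against GFP, with bars for the 95% interval from edgeR's quasi-likelihood fit (n = 2 libraries per group), grouped by role. Eif2ak3 is the red point to the right of 0 and Manf, Pdia4 and Spcs3 are the blue points to its left, while the widest intervals belong to Derl3, Ero1l, Ern1 and Ero1lb.

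Of the 3 sensors 1 rose and the other two did not pass the test; whether their responses differed was not tested. Eif2ak3 (chromosome 6, 70844515 to 70905245, plus strand, GENCODE M21 on GRCm38) stood at 114 and 148 CPM in ERRγ libraries 1 and 2 and at 81.4 and 83.3 CPM in GFP libraries 1 and 2. Both ERRγ libraries were above both GFP libraries (log2 ratio 0.67 with SE 0.16, edgeR adjusted p = 0.0466). Atf6, the membrane-bound transcription factor (chromosome 1, 170704674 to 170867771, minus strand), had 36.3 and 46.2 CPM with ERRγ against 35.3 and 38.0 CPM with GFP, and the groups overlapped (log2 ratio 0.17, 95% interval −0.22 to 0.56, adjusted p = 0.598). Ern1, the gene of IRE1α (chromosome 11, 106394650 to 106487852, minus strand), was close to the limit of detection, with 14 and 16 counts under ERRγ against 14 and 26 under GFP. At that depth its fold had a 95% interval of 0.297 to 1.89, so that a change of either sign of modest size was not detectable (adjusted p = 0.718). The call for Eif2ak3 ended without GFP library 1 and without GFP library 2, with log2 fold changes of 0.65 and 0.69. Fits without a GFP library, also given for other genes below, made far fewer calls over all genes tested than the main fit. Fits without an ERRγ library made more.

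Of the 12 chaperones and cochaperones none rose and 1 fell, and the most abundant of them, Hspa5, overlapped between groups. Hspa5 (chromosome 2, 34771970 to 34777547, plus strand) had 838 and 972 CPM with ERRγ against 927 and 874 CPM with GFP. Both GFP values lay between the ERRγ values, and the 95% interval of the fold was 0.798 to 1.27 (adjusted p = 0.983). Calr, the lectin chaperone calreticulin (chromosome 8, 84841850 to 84846934, minus strand), had 758 and 880.3 CPM with ERRγ against 739 and 648 CPM with GFP. It was higher in both ERRγ libraries without passing the test (log2 ratio 0.24 with SE 0.15, adjusted p = 0.385). Its membrane-bound relative Canx, calnexin, stood at 383 ± 30.1 CPM with ERRγ against 463 ± 68.4 CPM with GFP (log2 ratio −0.27, adjusted p = 0.337). Hsp90b1, the ER chaperone GRP94, stood at 478 ± 49.7 and 610.3 ± 99.4 CPM (log2 ratio −0.35, adjusted p = 0.246).

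Manf was the chaperone cofactor that fell. It had 101 and 104 CPM in the ERRγ libraries and 179.5 and 154 CPM in the GFP libraries (log2 ratio −0.70 with SE 0.14, adjusted p = 0.0247), and the groups were well apart. Its annotated span (chromosome 9, 106838312 to 106891979, minus strand) has exons that overlap Rbm15b on the same strand and Dcaf1 on the opposite strand, so its counts could include reads of these genes. The 5 islet markers summed higher in GFP library 1 than in the other libraries, as given above. Of the 17 genes lower in both ERRγ libraries, 9 were highest in GFP library 1, Manf among them, and 8 in GFP library 2. The part of islet RNA in these values was not tested. The call for Manf ended without GFP library 1 (adjusted p = 0.259) and without GFP library 2 (0.113), with log2 fold changes of −0.59 and −0.81.

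Among the cofactors of BiP, Sdf2l1 and Hyou1 lay next to the threshold on the lower side. They are given in full for that reason, a choice made after the values were seen. Sdf2l1, which keeps BiP clients soluble, had 23.7 and 29.6 CPM with ERRγ against 42.6 and 42.9 CPM with GFP (log2 ratio −0.68 with SE 0.17, adjusted p = 0.0505). Hyou1, the nucleotide exchange factor GRP170, had 49.5 and 45.3 CPM against 68.7 and 71.3 CPM (log2 ratio −0.56 with SE 0.14, adjusted p = 0.051). Creld2, a stress-induced disulfide isomerase-like protein, had 9.80 and 11.1 CPM against 14.9 and 16.8 CPM (adjusted p = 0.18), and Dnajc3, the cochaperone p58IPK, stood at 99.7 ± 6.87 and 133 ± 8.53 CPM (adjusted p = 0.112). In each of these 4 genes both ERRγ libraries were below both GFP libraries. The exchange factor Sil1 (27.9 ± 3.93 and 26.9 ± 1.14 CPM, adjusted p = 0.898) and the cochaperone Dnajb11 (26.9 ± 4.49 and 23.3 ± 1.82 CPM, adjusted p = 0.578) overlapped between groups.

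Dnajb9, the cochaperone ERdj4 that is a known XBP1 target, was high in a single library. It had 7.84 and 24.8 CPM in ERRγ libraries 1 and 2 and 5.62 and 8.61 CPM in the GFP libraries, so that ERRγ library 1 lay between the GFP values. Its log2 ratio of 1.19 (SE 0.51, adjusted p = 0.212) was 0.13 without ERRγ library 2 (adjusted p = 0.906) and 1.79 without ERRγ library 1 (adjusted p = 4.75e-08), a fit that rests on the single library 2.

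**Figure D2:**
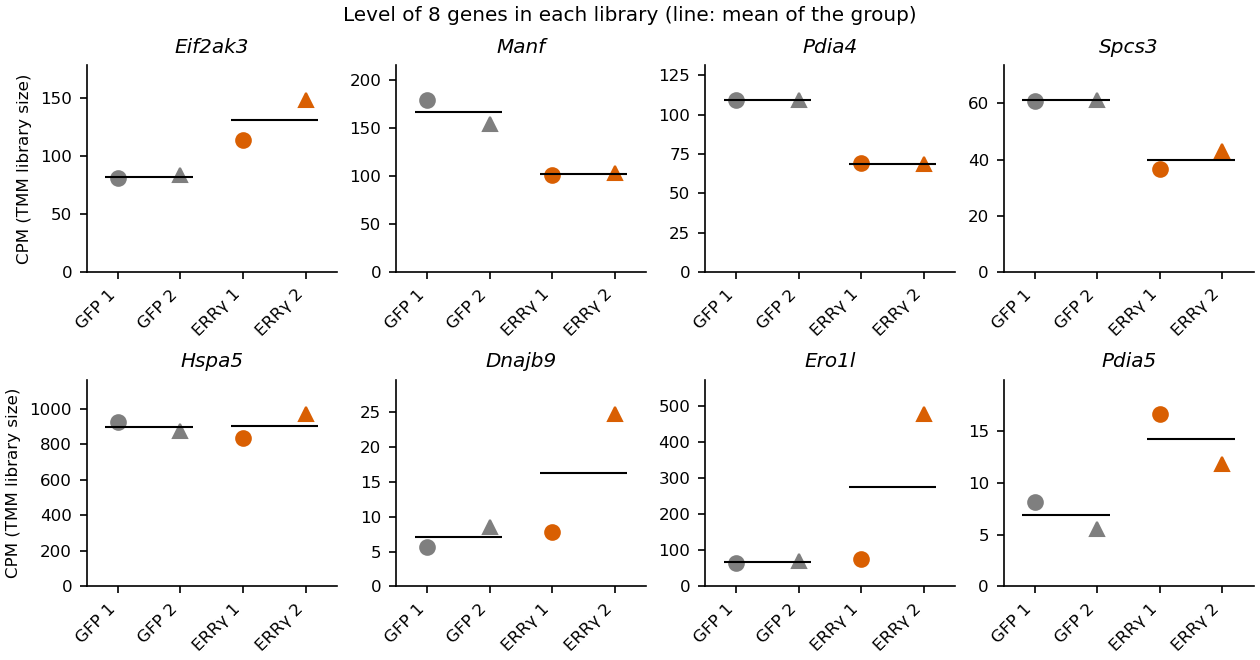
Level of 8 genes in CPM in each of the 4 libraries (circles, library 1 of a group; triangles, library 2; horizontal lines, group means), each axis starting at 0. Eif2ak3 lies higher and Manf, Pdia4 and Spcs3 lie lower in both ERRγ libraries, Hspa5 overlaps, and Dnajb9 and Ero1l are high in ERRγ library 2 alone.

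The disulfide enzymes had the widest spread of fold changes of the 5 roles, from −1.24 to 2.03 on the log2 scale, and 1 of the 7 passed the test. Pdia4 (chromosome 6, 47796141 to 47813430, minus strand) had 69.4 and 68.4 CPM with ERRγ and 109 CPM in each GFP library (log2 ratio −0.67 with SE 0.13, adjusted p = 0.0225). The libraries of each group lay close together and the groups did not overlap. Leaving out either GFP library kept the log2 ratio at −0.67 but ended the call (adjusted p = 0.206 without library 1 and 0.169 without library 2). Pdia3, the isomerase ERp57 that works with calnexin and calreticulin, had 245 and 310.2 CPM with ERRγ against 419.7 and 372 CPM with GFP (log2 ratio −0.51 with SE 0.16, adjusted p = 0.102). Pdia6, named here because it lay next to the threshold, had 164 and 182 CPM against 246 and 252 CPM (log2 ratio −0.53 with SE 0.13, adjusted p = 0.0558). Pdia3 and Pdia6 were lower in both ERRγ libraries, and their exons overlap Catsper2 and Atp6v1c2 on the opposite strand.

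The founding member of the family overlapped between groups. P4hb, protein disulfide isomerase itself, had 185 and 251 CPM with ERRγ against 234 and 197 CPM with GFP, and its 95% interval of the fold was 0.757 to 1.35 (adjusted p = 0.973). Pdia5 had 16.7 and 11.8 CPM with ERRγ against 8.17 and 5.56 CPM with GFP. Both ERRγ libraries were above both GFP libraries, without passing the test (log2 ratio 1.06 with SE 0.31, adjusted p = 0.0911).

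Neither of the ER oxidases that reoxidise the isomerases passed the test. Ero1l, the widely expressed ERO1α and a known hypoxia-inducible gene (chromosome 14, 45283087 to 45318771, minus strand), had 75.1 and 479 CPM in ERRγ libraries 1 and 2 and 64.8 and 70.8 CPM in the GFP libraries. ERRγ library 1 lay just above the GFP libraries, whereas ERRγ library 2 was 6.38 times as high as ERRγ library 1. The fitted log2 ratio was 2.03 (SE 0.67, adjusted p = 0.118), 0.14 without ERRγ library 2 (adjusted p = 0.698) and 2.82 without ERRγ library 1 (adjusted p = 1.02e-68). Ero1lb, the ERO1β form of pancreas and other secretory tissues, was near the floor, with 16 and 12 counts under ERRγ against 23 and 43 under GFP (log2 ratio −1.24 with SE 0.54, adjusted p = 0.215).
Ero1l (chr14:45318621-45318645, plus strand, opposite to the gene): tcccctgcggACGTGcagcggcgcg

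The run above lies 59 to 63 bases before the RefSeq start of Ero1l at its capitals, which mark ACGTG, the core letters of hypoxia response elements. The GENCODE span of Ero1l given above starts further upstream and includes this run. This motif was added after the values of Ero1l were seen. It also occurs within the UPR element, and 21.8% of all genes and 14 of the 32 matched genes hold it in their window.

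The 3 genes of the 40 that differed at least 2-fold between the ERRγ libraries, Ero1l, Dnajb9 and Derl3, were all higher in library 2 (7.5% of the 40). Derl3, on 3 and 13 counts there, went the other way between the GFP libraries, with 14 and 5 counts. At any size of difference, 28 of the 40 were higher in ERRγ library 2, against 6452 of all 13070 genes tested. The median ratio of ERRγ library 2 to library 1 was 1.12 for the 40 and 0.996 for all genes tested. A list of 18 hypoxia-response genes, chosen with earlier results of these data known, is set beside them as description only. All 18 were higher in ERRγ library 2 than in library 1, by 1.35 to 12.1 times, and 12 of them by at least 2-fold. Their summed level was 3492 and 8581 CPM in ERRγ libraries 1 and 2 and 3064 and 3225 CPM in the GFP libraries. No gene of the list was at 0 in any library, and between the GFP libraries the ratio of library 2 to library 1 ran from 0.877 to 1.43. Of all genes tested 3.91% were at least 2-fold higher in ERRγ library 2 and 5.62% at least 2-fold higher in ERRγ library 1, where none of the 40 was. The part of a hypoxia response, or of the higher Esrrg level of ERRγ library 2, in the values of Ero1l and Dnajb9 was not tested.

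**Figure D3:**
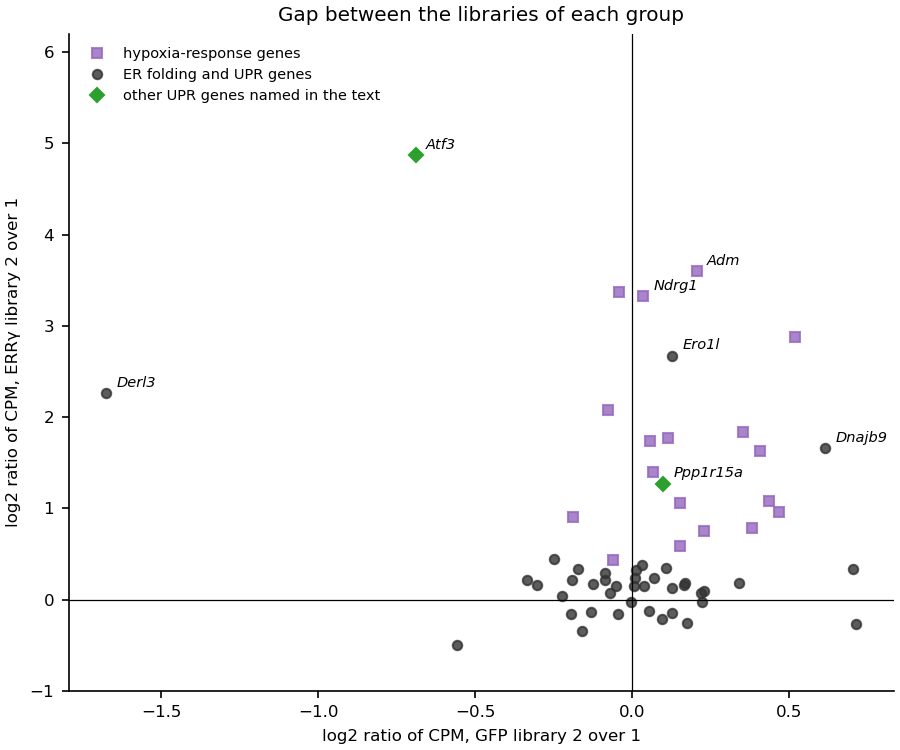
Log2 ratio of CPM between library 2 and library 1 of the ERRγ group (vertical) and of the GFP group (horizontal) for the 40 ER genes (circles), 18 hypoxia-response genes (squares) and Atf3 and Ppp1r15a (diamonds). Most ER genes lie near 0 on the vertical axis, while Ero1l, Dnajb9 and Derl3 reach the height of the hypoxia-response genes, Derl3 on 3 and 13 counts only.

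None of the 8 degradation genes rose or fell, and their fold changes stayed within a narrow range, from −0.34 to 0.29 on the log2 scale. At an unadjusted p under 0.05 there was 1 gene lower (12.5%, against 9.53% of all genes tested) and none higher (against 13.6%). Derl1, a channel-forming partner of retrotranslocation, had 81.9 and 74.1 CPM with ERRγ against 78.5 and 85.7 CPM with GFP (adjusted p = 0.798). Sel1l, the scaffold of the HRD1 ubiquitin ligase, had 86.3 and 77.2 CPM against 105 and 102 CPM, lower in both ERRγ libraries (log2 ratio −0.34 with SE 0.13, adjusted p = 0.178). Edem2, which trims mannose from misfolded glycoproteins, was higher in both ERRγ libraries, with 50.4 and 56.4 CPM against 41.2 and 46.2 CPM (log2 ratio 0.29 with SE 0.15, adjusted p = 0.282).

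The ligase gene Syvn1 itself had 43.6 and 36.5 CPM with ERRγ against 37.5 and 42.3 CPM with GFP, and Herpud1, a sensitive UPR target, stood at 53.5 ± 0.719 and 49.5 ± 5.42 CPM (adjusted p = 0.99 and 0.701). Edem1 and Derl2 had adjusted p-values of 0.636 and 0.379. Derl3, a derlin induced by stress in secretory cells, had 3 and 13 counts under ERRγ against 14 and 5 under GFP, too few to show a change of less than several-fold (95% interval of the fold, 0.183 to 3.72).

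Of the 10 translocation genes 1 fell and none rose. Spcs3 (chromosome 8, 54520433 to 54529998, minus strand) had 36.6 and 43.1 CPM with ERRγ against 60.8 and 61.2 CPM with GFP, lower in both ERRγ libraries (log2 ratio −0.61 with SE 0.15, adjusted p = 0.0468). Its partner subunits did not pass: Spcs2 stood at 170 ± 6.2 and 219 ± 7.46 CPM (log2 ratio −0.37, adjusted p = 0.138) and Spcs1 at 95.9 ± 4.38 and 93.9 ± 10.6 CPM (log2 ratio 0.03, adjusted p = 0.931). Exons of Spcs3 overlap Asb5 on the opposite strand. The call for Spcs3 ended without GFP library 1 (adjusted p = 0.291), without GFP library 2 (0.257) and with library totals in place of TMM (0.0635).

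The channel and its associated complex showed no common direction. Sec61a1, the pore subunit, had 286 and 301 CPM with ERRγ against 219 and 256 CPM with GFP (log2 ratio 0.30 with SE 0.14, adjusted p = 0.244), higher in both ERRγ libraries. The small subunits Sec61b (94.1 ± 7.53 and 102 ± 9.74 CPM) and Sec61g (206 ± 23.7 and 205 ± 6.96 CPM) overlapped between groups. Among the translocon-associated proteins, Ssr1 had 90.0 and 100.1 CPM with ERRγ against 129.9 and 125 CPM with GFP (log2 ratio −0.42 with SE 0.13, adjusted p = 0.103), lower in both ERRγ libraries. Ssr3, the most abundant of the 10, had 293 and 324 CPM against 326 and 327 CPM (adjusted p = 0.764), and Ssr2 and Ssr4 overlapped between groups (adjusted p = 0.814 and 0.754).

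None of the 10 genes with an ERSE match in their window passed the test. Over all genes tested 5.06% rose and 1.78% fell, so 0 calls among 10 genes does not set them apart. The log2 fold changes of these 10 genes ran from −1.24 for Ero1lb to 0.24 for Calr, with a median of −0.31. Both ERRγ libraries were below both GFP libraries in 6 of them, Hsp90b1, Canx, Dnajc3, Creld2, Pdia6 and Ero1lb, above in 1, Calr, and overlapping in Hspa5, Syvn1 and Derl3. The 22 genes whose window held no match had a median of −0.04, with 8 below, 4 above and 10 overlapping. Over all genes tested 26.6% lay below and 27.4% above. Of the called genes, Eif2ak3 and Pdia4 had a window without an ERSE, and windows of Manf and Spcs3 were not used here.

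Beyond the 40 genes, 102 other genes of the same pathways were listed, of which 97 could be tested. By edgeR 1 rose (1.03%, against 5.06% of all genes tested) and none fell (against 1.78%). At an unadjusted edgeR p under 0.05, 6 were higher (6.19%, against 13.6% of all genes tested) and 13 lower (13.4%, against 9.53%). DESeq2 called 0 of these genes higher and 2 lower, and 813 higher and 349 lower of all 13070 genes tested. The gene that rose was Ppp1r15a, which encodes GADD34, the phosphatase subunit that reverses eIF2α phosphorylation. It had 90.6 and 219 CPM in ERRγ libraries 1 and 2 and 46.2 and 49.5 CPM in the GFP libraries (log2 ratio 1.69 with SE 0.35, adjusted p = 0.0302). Both ERRγ libraries were above both GFP libraries, and the log2 fold change was 0.92 without ERRγ library 2. The call ended without GFP library 1 (adjusted p = 0.265), without GFP library 2 (0.191) and with DESeq2 (0.0536), and exons of Ppp1r15a overlap Tulp2 on the opposite strand.

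The transcription factors that carry the UPR to the nucleus showed no change that passed the test. Xbp1 had 71.0 and 62.2 CPM with ERRγ against 70.8 and 74.4 CPM with GFP (log2 ratio −0.12, 95% interval of the fold 0.733 to 1.15, adjusted p = 0.648). Whether its transcript was spliced cannot be read from a count per gene. Atf4 had 683 and 893 CPM with ERRγ against 731 and 733 CPM with GFP (adjusted p = 0.75), and Ddit3, the gene of CHOP, had 93.4 and 122 CPM against 107 and 96.0 CPM (adjusted p = 0.803). In both genes the GFP values lay between the ERRγ values. Exons of Ddit3 overlap Mars on the opposite strand. Atf3, a stress-induced factor named here for its size after its values were seen, had 7.84 CPM in ERRγ library 1 and 229 CPM in ERRγ library 2, against 11.9 and 7.35 CPM with GFP (log2 ratio 3.63 with SE 1.19, adjusted p = 0.115).

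By list, the medians of log2 fold change were −0.05 for 19 tested genes of UPR signalling and output, −0.15 for 33 other folding genes, −0.11 for 21 other degradation genes and 0.00 for 24 genes of translocation and glycan transfer. Apart from Ppp1r15a no gene of these lists passed the edgeR test. Tram1, a translocation-associated membrane protein chosen as the nearest to the threshold after values were seen, had 89.6 and 100.0 CPM with ERRγ against 135 and 134 CPM with GFP (log2 ratio −0.51 with SE 0.13, adjusted p = 0.0636).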

How the data were processed

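The authors deposited 1 table per library of raw counts (whole numbers) by gene symbol, not normalized. The submitters' processing notes name Bowtie2, edgeR and the build mm10 but no version. How reads were counted, on which annotation and whether by strand is not given in the sources used here. Libraries were made from 500 ng RNA with a QuantSeq kit, per the labels' protocols, so a count stands for a transcript end and levels need no length correction. No molecular identifiers are named there, so a floor of 3 counts covers counting error only.

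Tests used R 4.3.3 and edgeR 4.0.16: filterByExpr with a minimum count of 10 (13070 of 17888 rows with a count), TMM scaling, glmQLFit and glmQLFTest on the group alone with 2 residual degrees of freedom, two-sided, with Benjamini-Hochberg adjustment over all genes tested and a threshold of 0.05. SE is the log2 fold change divided by the root of F, and 95% intervals use the fitted degrees of freedom. The fit was tested on simulated data. limma 3.58.1 and DESeq2 1.42.0 gave alternatives. With a library left out, the lone library of its group is assumed to vary like the other group. Replicates differed by more than counting error (chi-square per degree of freedom: ERRγ 22.6, GFP 14.3).

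The genes and lists were chosen with earlier results of these data known. Every gene was named, with library values for the sensors, called genes and, in each role, the 2 of highest level and the 2 of largest fold change. Outside the 40, Xbp1, Atf4, Ddit3 and up to 3 called genes per list were named. Motifs were searched in Python 3.11.15.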

Additional observations from a re-analysis of the deposited data

How the results depend on the processing

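The rise of Eif2ak3 and the falls of Manf and Pdia4 passed in all 7 other fits of the 4 libraries, and that of Spcs3 in 6. These calls held in the fits without an ERRγ library, which made more calls over all genes tested than the main fit. They ended in the fits without a GFP library, which made far fewer. The low ends of the call counts in the next sentence came from fits without a GFP library. The high ends came from fits without an ERRγ library, so these counts moved with the calls over all genes tested. When a library was left out, the 40 genes gave 0 to 3 rises and 0 to 9 falls, and the other listed genes 0 to 5 rises and 0 to 4 falls. With no filter on low counts there were 4 rises and 7 falls among the 40 and 3 and 6 among the other genes, for which the cause was not tested. Over all genes, that fit gave 1271 rises and 738 falls of 17888 tested, against 661 and 233 of 13070 in the main fit. Falls among the 40 numbered 6 with a 5 CPM filter (231 of all 10261 genes tested) and 6 with DESeq2. DESeq2 called 0 rises and 2 falls among the other genes, and 813 rises and 349 falls among all 13070 genes tested. Over all genes tested, deviations from the group mean correlated at 0.0135 between same-numbered libraries. That value does not show whether same-numbered libraries share a preparation. The islet markers summed higher in library 1 of both groups (29.9 against 7.89 CPM with ERRγ, 133.6 against 18.8 CPM with GFP). A fit with a replicate block gave 5 falls among the 40, and 315 among the 13070 genes tested. Genes near 0 changed sign. With no filter Hspa5 was at −0.0021, Syvn1 at −0.0037 and Sec61g at −0.0063, and Sec61g was at −0.0014 with limma-voom and −0.0012 with the replicate block. Leaving out a library gave log2 fold changes of −0.017 to 0.33 for Atf6, −0.11 to 0.11 for Hspa5, −0.10 to 0.19 for Sil1, −0.23 to 0.22 for P4hb, −0.00057 to 0.23 for Herpud1, −0.32 to 0.020 for Edem1, −0.13 to 0.12 for Syvn1, −1.75 to 0.75 for Derl3, −0.12 to 0.12 for Sec61g, −0.022 to 0.15 for Ssr2, −0.086 to 0.15 for Spcs1, −0.10 to 0.29 for Atf4 and −0.12 to 0.27 for Ddit3. With 2 libraries a group, a gene that did not pass is not shown to be unchanged.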

Other observations

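ER genes that are known for secretory tissues stood far below their widely expressed relatives in all 4 libraries, a set of pairs put together after the values were seen. Pdia2, the pancreatic disulfide isomerase, had 10 and 5 counts under ERRγ against 15 and 11 under GFP, or 0.692 ± 0.281 and 1.26 ± 0.387 CPM, against 218 ± 46.8 and 216 ± 26.3 CPM for P4hb. Derl3 stood at 0.775 ± 0.718 and 0.939 ± 0.695 CPM, against 78.0 ± 5.51 and 82.1 ± 5.11 CPM for Derl1. Ern2, the epithelial paralog of Ern1, had 1 count in ERRγ library 2 and none elsewhere. Sec11c, the signal peptidase catalytic subunit abundant in secretory glands, was an exception, with 42.4 ± 6.36 and 49.0 ± 6.22 CPM against 139 ± 8.21 and 143 ± 12.5 CPM for Sec11a.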
